A study of Homo sapiens with 36 samples.

Results

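The expression changes that follow knockdown of DUSP4 were measured in SUM159PT, a human breast cancer cell line grown from an anaplastic carcinoma. Of 36 Affymetrix arrays in the series, 6 belong to this comparison: 3 replicate arrays, lettered A to C, of cells transfected with DUSP4-targeted siRNA (siDUSP4) and 3 of cells transfected with a non-targeting control siRNA pool (siCONTROL). Both groups received 10 nM siRNA by reverse transfection, DMSO as the vehicle of the drug used elsewhere in the series, and were harvested 96 h after transfection, and both were cultured with hydrocortisone in the medium. Every one of the 17958 genes with a single symbol on the array was tested, each by the probe of highest mean level over the 36 arrays. The other arrays hold the same pair of siRNA groups in the breast cancer lines MDA231 and BT549, and siCONTROL cells of each line given the MEK inhibitor selumetinib (1 uM) for 4 or 24 h. The study asked which genes change after loss of DUSP4 or after MEK inhibition.

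DUSP4 encodes a dual-specificity phosphatase of the cell nucleus that removes phosphate from MAP kinases, mainly ERK and, depending on the cell, JNK and p38. Its own gene is switched on by ERK signalling, so that it works as a feedback brake on the RAS, RAF, MEK and ERK cascade. In breast tumours without oestrogen receptor or HER2 dependence, loss of DUSP4 has been linked to high RAS and ERK pathway output and to stem-like traits.

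The replicates are not described as separate cultures, so the p-values below measure the spread between replicate arrays, which may be technical. That spread was pooled over all 12 groups of the 36 arrays, not taken from these 6 alone. For 24 arrays the title and the cell line field name one of SUM159PT and BT549 where the source name and description name the other, and the titles were followed. RB1, which BT549 is known to have lost, had a siCONTROL level of 9.40 in arrays titled SUM159PT, against 10.31 in MDA231 and 6.83 in arrays titled BT549. The arrays titled SUM159PT showed high VIM (12.08 in siDUSP4 and 11.99 in siCONTROL) and CDH2 (10.64 and 10.66). They showed low CDH1 (4.13 and 4.23), ESR1 (4.26 and 4.31) and PGR (3.56 and 3.57), where the median level of all probes was 5.27. Epithelial genes were not all low: the keratin genes KRT8 (11.02 and 11.12) and KRT18 (10.99 and 11.10) were high, while KRT19 (4.13 and 4.62) was low. ERBB2, the HER2 gene, lay above that median (7.72 and 7.77), and EPCAM lay close to it (5.16 and 5.52). Of 16 blood, endothelial and fat cell markers, 12 lay below that median in both groups, and their mean level was 4.53 to 4.57 in siDUSP4 arrays and 4.65 to 4.73 in siCONTROL arrays. Levels are on a log2 scale throughout, so that a difference of 1 is a doubling, and a gene was called changed at a limma adjusted p under 0.05. The cells were measured in bulk, so fewer cells of a kind and less RNA per cell cannot be told apart.

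DUSP4 fell in the siDUSP4 arrays. Its level was 5.29, 5.28 and 5.32 in siDUSP4 A, B and C, against 7.28, 7.08 and 7.06 in siCONTROL A, B and C. The groups did not overlap, and the siDUSP4 arrays lay close to the median probe level. The change was -1.84 (SE 0.17, adjusted p = 9.0e-09), which left 27.9% of the siCONTROL signal. The 15 alternative settings gave changes between -1.88 and -1.77, called in each. The same siRNA gave -2.42 in MDA231 and -2.24 in BT549, and neither difference from SUM159PT was called (adjusted p = 0.16 and 0.37).

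Over the whole array, 509 genes were called, 2.83% of those tested, with 189 higher (1.05%) and 320 lower (1.78%). Most changes were small: the median was 0.57 among higher and -0.60 among lower genes, and 15 rises and 30 falls exceeded 1. The median change of all genes was -0.04. Counts of called members of a gene list stand against these shares of all genes. In 32.3% of all genes the siDUSP4 and siCONTROL arrays did not overlap, so separation of the 6 arrays is common among uncalled genes too. The call count depended on which arrays supplied the estimate of spread. It was 1558 with the 6 arrays alone and 1333 with the 12 SUM159PT arrays, where the median spread within groups was 0.10 and 0.12, against 0.16 over all 12 groups. It was 1085 after a repeated quantile normalization. It was 290, 303 and 337 without siCONTROL A, B and C, and 291, 334 and 339 without siDUSP4 A, B and C.

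**Figure D1:**
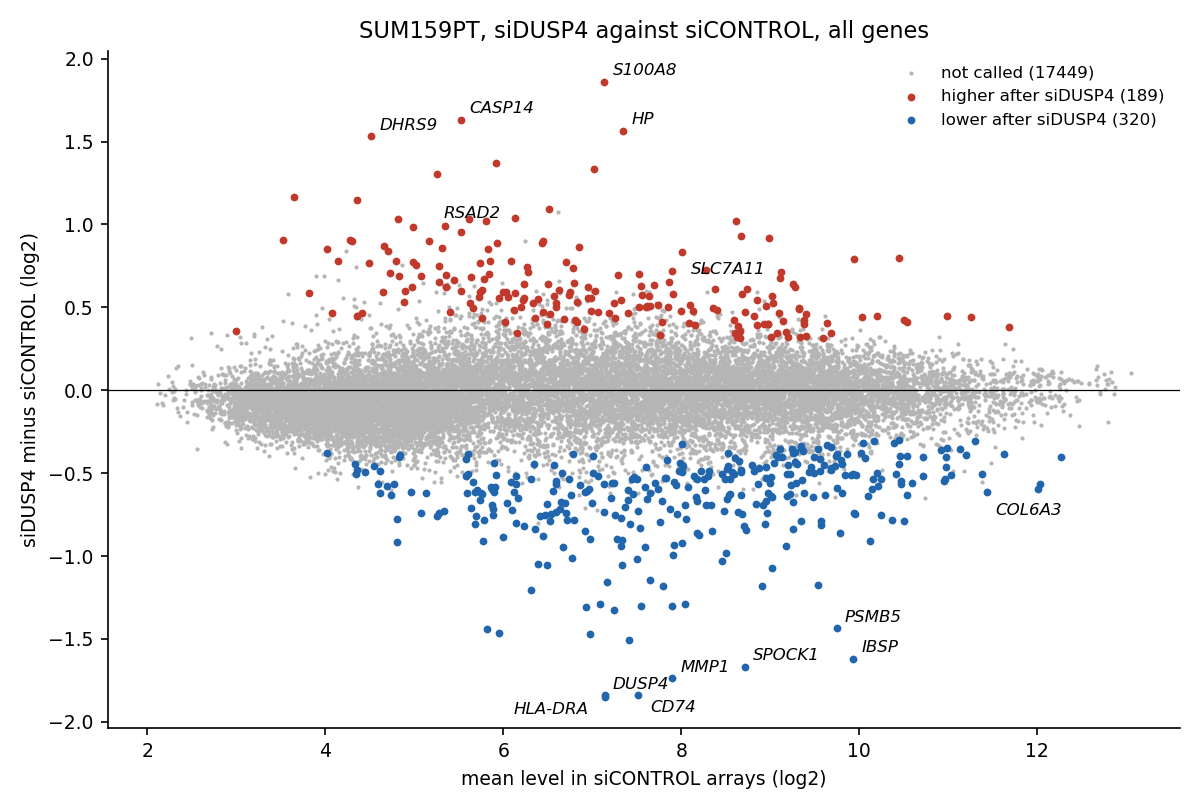
Each point is 1 of the 17958 genes, placed by its mean level in the SUM159PT siCONTROL arrays (log2, horizontal) and its siDUSP4 minus siCONTROL change (log2, vertical). The 189 higher genes (red) and 320 lower genes (blue) spread over the whole range of levels, with DUSP4, HLA-DRA and CD74 at the bottom near -1.84 and S100A8 at the top at 1.86.

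S100A8, CASP14 and HP showed the 3 largest rises. S100A8, which encodes one chain of the calcium-binding alarmin calprotectin, stood at 9.0, 9.01 and 8.98 in siDUSP4 A, B and C, against 7.08, 7.21 and 7.12 in siCONTROL A, B and C. The 3 siDUSP4 values were almost equal and far above the control values. The rise was 1.86 (SE 0.17, adjusted p = 1.1e-08), 3.63-fold. S100A9, the gene of its partner chain, lies outside the rule for naming genes and was picked after its values were seen: it stood at 5.88, 6.12 and 6.19 in the siDUSP4 arrays, against 5.0, 5.21 and 5.27 in the siCONTROL arrays, a rise of 0.90 (adjusted p = 1.8e-05). CASP14, a caspase of the cornifying epidermis, stood at 7.0, 7.28 and 7.21 in the siDUSP4 arrays, against 5.46, 5.46 and 5.67 in the siCONTROL arrays. Its rise of 1.63 (SE 0.15, adjusted p = 1.1e-08) again separated the groups by more than the whole range within either. HP, encoding haptoglobin, which binds free haemoglobin, stood at 8.82, 8.72 and 9.20 in the siDUSP4 arrays, against 7.29, 7.41 and 7.35 in the siCONTROL arrays. It rose by 1.57 (SE 0.25, adjusted p = 1.5e-04), with siDUSP4 C the highest. C4BPA, the alpha chain of the complement regulator C4b-binding protein, rose by 1.17, although its siDUSP4 mean of 4.82 ± 0.23 (SD, n = 3) was still below the median probe level. CRISP3, a cysteine-rich secretory protein, averaged 9.63 ± 0.12 in siDUSP4 and 8.61 ± 0.15 in siCONTROL arrays (SD, n = 3 each) and rose by 1.02 (adjusted p = 2.5e-06). OLFM4, a secreted olfactomedin, rose by 0.91 at levels below the median probe.

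Several of the 20 largest rises were of enzymes and transporters. DHRS9, a short-chain dehydrogenase that acts on retinol, stood at 6.07, 6.20 and 5.88 in siDUSP4 A, B and C, against 4.66, 4.63 and 4.26 in siCONTROL A, B and C. It lay above the median probe level in all knockdown arrays and below it in all control arrays, a rise of 1.53 (SE 0.14, adjusted p = 9.0e-09). CYP4V2, a cytochrome P450 that hydroxylates fatty acids, stood at 8.50, 8.23 and 8.34 in the siDUSP4 arrays, against 6.91, 7.06 and 7.08 in the siCONTROL arrays. Its rise was 1.34 (SE 0.13, adjusted p = 2.4e-08). LIPH, a phospholipase that makes lysophosphatidic acid, rose by 1.15, ABCD2, a peroxisomal fatty acid transporter, by 1.03, and ACADL, the long-chain acyl-CoA dehydrogenase, by 1.03. AQP3, a channel for water and glycerol, stood at 9.81, 9.98 and 9.93 in the siDUSP4 arrays, against 9.03, 8.86 and 9.07 in the siCONTROL arrays and rose by 0.92 (adjusted p = 6.3e-04). ATP6V0D2, a subunit of the proton pump of lysosomes, stood at 6.56, 6.75 and 6.37 in the siDUSP4 arrays, against 5.47, 5.34 and 4.96 in the siCONTROL arrays and rose by 1.30 (adjusted p = 8.9e-05).

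Receptors, channels and a cytoskeletal regulator were also among the 20 largest rises. KDR, the gene of the endothelial VEGF receptor, stood at 7.71, 7.67 and 7.45 in siDUSP4 A, B and C, against 6.51, 6.44 and 6.61 in siCONTROL A, B and C, a rise of 1.09 (SE 0.15, adjusted p = 1.0e-05). The lowest knockdown array exceeded the highest control array by more than the range within either group. GMFG, which acts on the Arp2/3 actin branching complex, rose by 0.93 at a siDUSP4 mean of 9.60 ± 0.27 and a siCONTROL mean of 8.67 ± 0.15. SCN1A, a sodium channel gene, rose by 0.99 and KLRD1, a lectin-like receptor gene of natural killer cells, by 0.98. KLRC4-KLRK1, the neighbouring read-through gene, had siDUSP4 values spread from 6.34 to 7.34 and its rise of 1.02 was not called in 5 of the 6 runs that left out 1 array (adjusted p up to 0.29; it stayed called only without siDUSP4 C). EYS, a retinal gene, rose by 1.37 on 1 probe, while its other 4 probes changed by -0.24 to 0.32 and were not called.

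**Figure D2:**
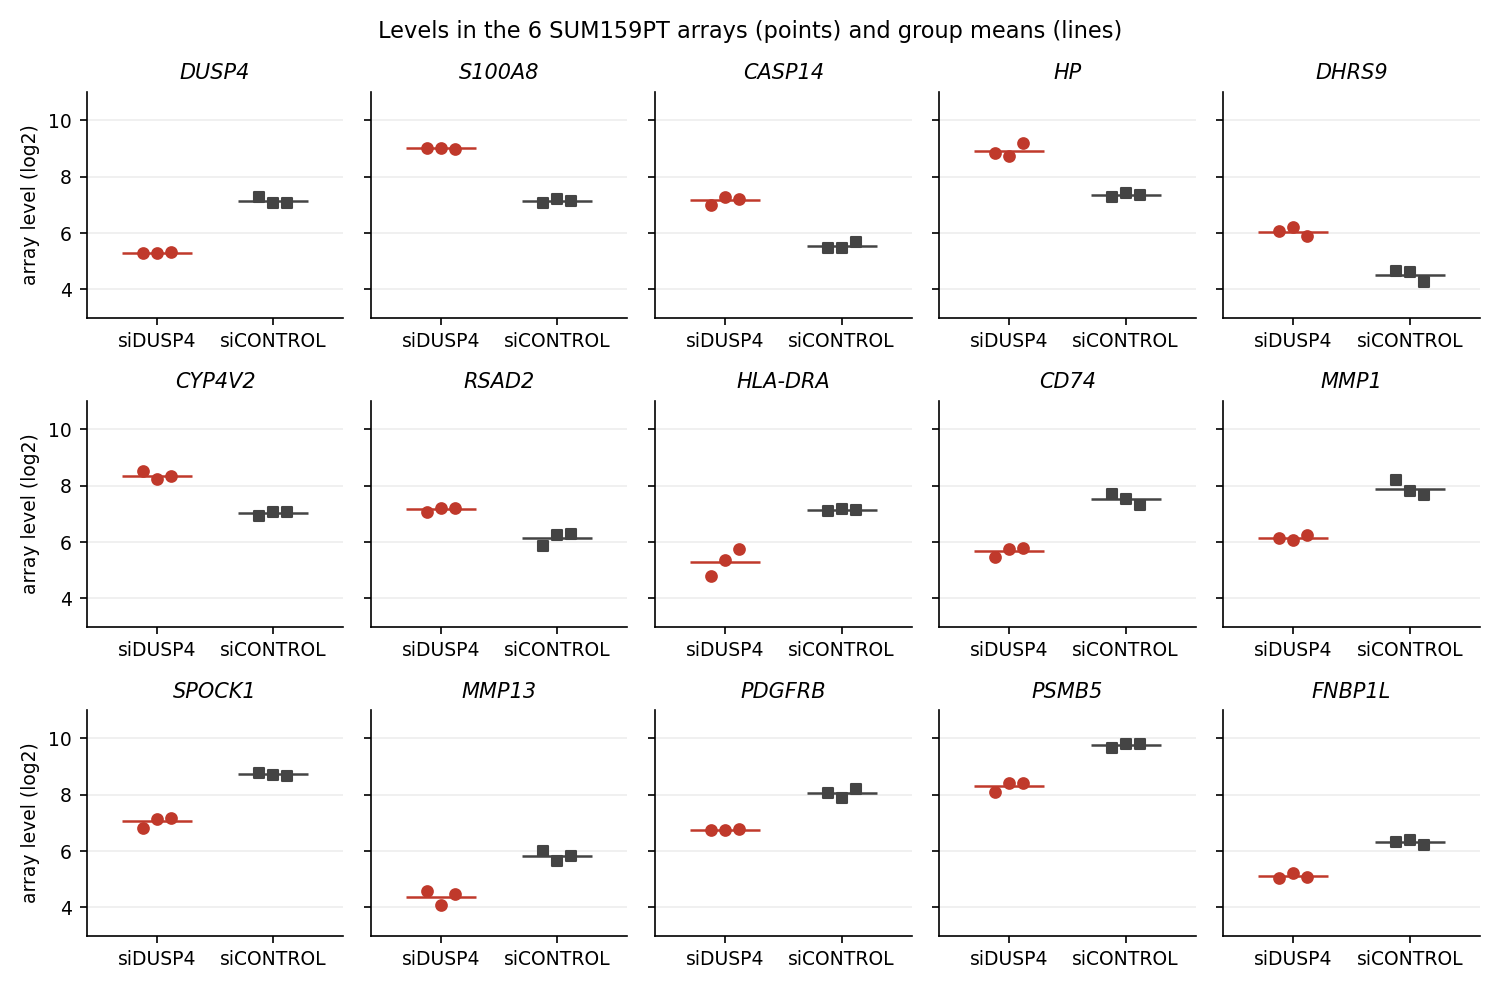
Levels (log2, vertical axis) of 15 named genes in the 3 siDUSP4 arrays (red circles, left) and the 3 siCONTROL arrays (grey squares, right) of SUM159PT, with a line at each group mean. In each panel the groups do not overlap; S100A8 sits near 9.0 after siDUSP4 and DUSP4 near 5.29.

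HLA-DRA, CD74, MMP1 and SPOCK1 showed the largest falls beside DUSP4. HLA-DRA, the alpha chain of the MHC class II molecule HLA-DR, stood at 4.78, 5.35 and 5.74 in siDUSP4 A, B and C, against 7.10, 7.17 and 7.15 in siCONTROL A, B and C. The siDUSP4 arrays varied more than the siCONTROL arrays, yet all 3 lay far below them. The change was -1.85 (SE 0.17, adjusted p = 1.1e-08), and 2 more HLA-DRA probes gave -1.53 and -1.34, both called. CD74, the invariant chain that accompanies class II molecules, stood at 5.47, 5.74 and 5.80 in siDUSP4 A, B and C, against 7.70, 7.52 and 7.32 in siCONTROL A, B and C, a change of -1.84 (SE 0.14, adjusted p = 2.3e-10), or 28% of the control signal. MMP1, interstitial collagenase, stood at 6.16, 6.06 and 6.26 in siDUSP4 A, B and C, against 8.22, 7.82 and 7.66 in siCONTROL A, B and C. The knockdown arrays lay close together, far below every control array, and the change was -1.74 (SE 0.16, adjusted p = 9.0e-09). SPOCK1, the proteoglycan testican-1, stood at 6.83, 7.14 and 7.18 in siDUSP4 A, B and C, against 8.77, 8.70 and 8.68 in siCONTROL A, B and C, a change of -1.67 (SE 0.12, adjusted p = 7.1e-11), which was the smallest adjusted p of any gene in the comparison.

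IBSP, ITGA11 and MMP13, which act in bone and collagen, were also among the 20 largest falls. IBSP, encoding bone sialoprotein, stood at 8.31, 8.18 and 8.45 in the siDUSP4 arrays, against 9.97, 9.98 and 9.85 in the siCONTROL arrays and changed by -1.62 (SE 0.18, adjusted p = 1.6e-07). ITGA11, the alpha chain of a collagen-binding integrin, stood at 5.81, 5.94 and 5.96 in the siDUSP4 arrays, against 7.61, 7.29 and 7.33 in the siCONTROL arrays and changed by -1.50. MMP13, collagenase 3, fell by 1.44 and reached a mean of 4.38 ± 0.26 in siDUSP4 arrays, against 5.82 ± 0.17 in siCONTROL arrays (SD, n = 3 each). In these 3 genes no knockdown array reached the lowest control array. CEMIP, which takes part in breaking down hyaluronan, changed by -1.32, and SERPINE2, the secreted protease inhibitor nexin-1, by -1.18. PDGFRB, the beta receptor of platelet-derived growth factor, stood at 6.74, 6.74 and 6.79 in siDUSP4 A, B and C, against 8.04, 7.88 and 8.22 in siCONTROL A, B and C. Its change was -1.29 (SE 0.15, adjusted p = 2.9e-07). CMKLR1, the chemerin receptor, changed by -1.47, EHF, an epithelial ETS transcription factor, by -1.30, STAT4, a cytokine signal transducer, by -1.30, FMO1, a flavin monooxygenase, by -1.29, and BICC1, an RNA-binding protein, by -1.18. SHISAL2B and BPIFA2 changed by -1.46 and -1.31.

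Among lists of MAP kinase cascade, phosphatase, JNK and p38, and AP-1 genes, only the JNK and p38 list held called members. Over all genes 2.83% were called, 1.05% higher and 1.78% lower. None of 19 measured genes of the RAS, RAF, MEK and ERK cascade was called (median 0.00), and the smallest adjusted p was that of MAP2K2, the MEK2 gene, at -0.39 (adjusted p = 0.085). None of 9 other MAP kinase phosphatase genes was called: DUSP10 was at -0.35, DUSP1 at -0.10, DUSP7 at -0.10 and DUSP6, the cytoplasmic ERK phosphatase, at 0.04 (adjusted p = 0.97). Among 18 JNK and p38 pathway genes, 2 fell: MAP3K7, the TAK1 kinase, by 0.36 and ATF2, a transcription factor phosphorylated by JNK and p38, by 0.41. Neither held in every run that left out 1 array: MAP3K7 was lost in all 6 and ATF2 in 4 (adjusted p up to 0.12 and 0.068). None of 21 AP-1 and immediate early genes was called (median -0.02), with JUN at -0.43 (adjusted p = 0.16) and JUNB at -0.06. The fit behind these calls takes its spread from all 12 groups. Among the 15 alternative settings MAP2K2 and DUSP10 gained a call in 3 each and JUN in 2. Their lowest limma adjusted p was 0.0087, 0.026 and 0.0053.

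Of 29 genes that report MAP kinase output, 3 fell and none rose, where 1.78% of all genes fell and 1.05% rose. The list median was -0.08. SPRY1, a feedback inhibitor of receptor signalling, stood at 5.94, 5.98 and 5.79 in siDUSP4 A, B and C, against 6.45, 6.21 and 6.39 in siCONTROL A, B and C. It changed by -0.45 (SE 0.11, adjusted p = 0.013). PHLDA1, a growth factor-induced pleckstrin-like protein, stood at 7.82, 8.03 and 7.99 in the siDUSP4 arrays, against 8.48, 8.44 and 8.43 in the siCONTROL arrays and changed by -0.51 (adjusted p = 0.014). CXCL8, encoding interleukin 8, stood at 6.78, 6.08 and 6.29 in the siDUSP4 arrays, against 7.34, 7.28 and 7.22 in the siCONTROL arrays and changed by -0.90 (adjusted p = 0.041). The groups did not overlap in any of the 3, but the count was 0 to 2 when 1 array was left out (0 without siCONTROL A). MYC was at -0.09, and IER3 at -0.48 (adjusted p = 0.12). Other well-known outputs did not pass the test (they were picked after their values were seen): SPRY4 was at 0.30, EGR1 at 0.26, ETV1 at 0.24 and CCND1 at 0.13, and EREG at -0.35, SPRY2 at -0.20, ETV5 at -0.18 and ETV4 at -0.15. Against the same siCONTROL arrays, selumetinib called 20 of these 29 genes lower after 4 h (median -0.80) and 14 after 24 h (median -0.59), where 4.28% of all genes were called at 4 h and 4.28% at 24 h. Since siDUSP4 and selumetinib share those control arrays, the values are given side by side only. SPRY1 was at -1.07 and -0.63 after 4 and 24 h of selumetinib, PHLDA1 at -1.18 and -0.97, and CXCL8 at -1.50 and -1.78. DUSP4 itself was at -1.35 and -0.85, GDF15 at -1.59 and -1.43 beside -1.07 after siDUSP4, and CASP14 at 0.25 and 2.15 beside 1.63. Other genes went opposite ways after siDUSP4 and after 24 h of selumetinib. S100A8 was at -0.13 and -1.28 beside 1.86 after siDUSP4, and GMFG at -0.69 and -1.07 beside 0.93. PDGFRB was at -0.21 and 0.98 beside -1.29, and CD24 at -0.01 and 1.23 beside -0.95. All these genes were picked, and likeness of the 2 treatments over all genes was not tested.

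Several genes of the antiviral interferon response rose. Cells make these proteins after type I interferon or sensing of foreign nucleic acid, and they degrade or block viral RNA. Of 42 measured members, 8 rose and none fell, where 1.05% of all genes rose and 1.78% fell, and the list median was 0.13, against -0.04 for all genes. RSAD2, encoding the antiviral enzyme viperin, stood at 7.07, 7.21 and 7.22 in siDUSP4 A, B and C, against 5.85, 6.26 and 6.27 in siCONTROL A, B and C. Each knockdown array lay above each control array by more than the range within either group, and the rise was 1.04 (SE 0.13, adjusted p = 3.9e-06). DDX60, a helicase that assists RNA sensing, stood at 9.07, 9.0 and 8.95 in siDUSP4 A, B and C, against 8.17, 8.26 and 8.41 in siCONTROL A, B and C, a rise of 0.73 (SE 0.14, adjusted p = 0.0016). OASL, an oligoadenylate synthetase-like protein, stood at 9.68, 10.02 and 9.98 in siDUSP4 A, B and C, against 9.20, 9.29 and 9.33 in siCONTROL A, B and C, a rise of 0.62 (adjusted p = 0.0037). The other 5 rises were of OAS2 (0.64) and OAS1 (0.56), which make the activator of RNase L, IFI35 (0.52), HERC6 (0.50), a ligase of the HECT family, and MX2 (0.46), a dynamin-like restriction factor. These 5 were near the threshold (adjusted p between 0.018 and 0.037). Leaving out 1 array left 3 members called without siCONTROL A, siDUSP4 B or siDUSP4 C, 5 without siCONTROL B or siCONTROL C, and 7 without siDUSP4 A. RSAD2, DDX60 and OASL were called in all 6 runs, and the adjusted p of the other 5 reached 0.091 to 0.27. Other members did not pass: IFITM1 was at 0.05 and IFITM3 at 0.11, while IFIT1, one of the classical interferon-induced genes, was at -0.23 and IRF9 at 0.13. The sensor gene RIGI was at 0.38 and IFI44 at 0.59, also not called.

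The promoters of 4 of these genes, and of the chemokine CXCL10, which is induced by interferon but moved the other way, are printed to show their sequence beside their change. These 4 are the called members whose window held the repeat marked below. The window of HERC6, which held none, is not printed. Windows run from 250 bases before to 50 bases after the RefSeq transcript start on GRCh38.p14, 5′ to 3′ on the strand of the gene. Capitals mark 2 copies of GAAA separated by 1 or 2 bases, on either strand. With 2 bases between the copies this is the core of the interferon-stimulated response element. Matches may overlap, and the spacing of 1 base was added after the windows had been read.
RSAD2 (chr2:6865635-6865934, plus strand): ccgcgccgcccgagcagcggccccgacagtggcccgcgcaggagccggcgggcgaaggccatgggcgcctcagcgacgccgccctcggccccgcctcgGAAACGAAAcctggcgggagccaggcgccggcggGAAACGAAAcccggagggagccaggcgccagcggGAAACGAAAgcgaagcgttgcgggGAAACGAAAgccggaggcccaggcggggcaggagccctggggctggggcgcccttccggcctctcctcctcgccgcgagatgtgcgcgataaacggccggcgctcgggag
DDX60 (chr4:168318703-168319002, minus strand): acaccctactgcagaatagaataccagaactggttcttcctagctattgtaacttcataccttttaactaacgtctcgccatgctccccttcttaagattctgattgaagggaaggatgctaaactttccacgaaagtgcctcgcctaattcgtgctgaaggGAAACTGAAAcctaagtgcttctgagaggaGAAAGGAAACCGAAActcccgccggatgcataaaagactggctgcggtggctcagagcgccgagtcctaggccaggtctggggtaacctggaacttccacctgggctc
OAS1 (chr12:112906712-112907011, plus strand): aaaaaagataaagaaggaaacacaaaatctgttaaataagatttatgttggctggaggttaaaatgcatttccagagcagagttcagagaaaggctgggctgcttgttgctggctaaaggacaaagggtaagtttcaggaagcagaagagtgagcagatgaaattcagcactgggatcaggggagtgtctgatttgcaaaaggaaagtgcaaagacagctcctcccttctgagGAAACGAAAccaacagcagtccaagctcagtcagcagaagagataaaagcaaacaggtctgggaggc
IFI35 (chr17:43006534-43006833, plus strand): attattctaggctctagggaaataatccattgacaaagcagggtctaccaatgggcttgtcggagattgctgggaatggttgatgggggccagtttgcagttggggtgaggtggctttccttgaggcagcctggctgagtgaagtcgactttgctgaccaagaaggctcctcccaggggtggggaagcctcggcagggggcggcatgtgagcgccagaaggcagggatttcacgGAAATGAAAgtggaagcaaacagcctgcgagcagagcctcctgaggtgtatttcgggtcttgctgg
CXCL10 (chr4:76023448-76023747, minus strand): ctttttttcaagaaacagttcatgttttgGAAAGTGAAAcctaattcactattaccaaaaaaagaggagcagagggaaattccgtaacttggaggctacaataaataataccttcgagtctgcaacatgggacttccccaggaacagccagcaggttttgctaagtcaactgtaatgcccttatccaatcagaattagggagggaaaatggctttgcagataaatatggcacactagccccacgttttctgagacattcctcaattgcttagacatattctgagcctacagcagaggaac
The RSAD2 window held 4 matches and the DDX60 window 3, of which 2 overlap, while OAS1, IFI35 and CXCL10 held 1 each. Such a match was present in 5.60% of the 13864 windows available for tested genes (2.88% with a spacing of 1 base and 3.04% with 2). In the interferon list 5 called and 28 uncalled members had a window. The spacing of 2 bases was present in 1 of the 5 called members (DDX60) and in 20 of the 28 uncalled members (71.4%). The spacing of 1 base was present in 4 of the 5 called members, with HERC6 the exception, and in 7 of the 28 uncalled members (25%). As that spacing was added after the windows had been read, its shares are no test of a difference. Either spacing was present in 4 of the 5 called members (80%) and in 22 of the 28 uncalled members (78.6%). A match describes the letters in these windows only. Each gene has 1 window, and any other transcript start of the same gene was not searched.

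Among 24 cytokine and chemokine genes 3 fell and none rose. CXCL10, which attracts T cells, stood at 6.97, 7.10 and 7.20 in siDUSP4 A, B and C, against 7.88, 8.12 and 8.04 in siCONTROL A, B and C, a change of -0.92 (SE 0.14, adjusted p = 1.0e-04). IL1A, interleukin 1 alpha, stood at 6.56, 6.57 and 6.58 in the siDUSP4 arrays, against 7.12, 7.06 and 7.22 in the siCONTROL arrays. It changed by -0.57 with the siDUSP4 arrays tightly together, but at an adjusted p of 0.049 the call was lost in all 6 runs that left out 1 array (adjusted p up to 0.17). CXCL8, described above, was the third, lost in 5 of 6 (adjusted p up to 0.23; it stayed called without siDUSP4 A). CCL5, a chemokine of T cells, was at -0.31 (adjusted p = 0.52) and IL6 at -0.45, not called. None of 13 NF-kB feedback genes was called, though 10 were below 0 and the median was -0.22: TRAF1 was at -0.56 (adjusted p = 0.084), TNFAIP3 at -0.43 and NFKBIA at -0.22.

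MHC class II was the list with the lowest median, -0.38 over 11 measured genes, of which 3 fell and none rose. Besides HLA-DRA and CD74, HLA-DPA1, the alpha chain of HLA-DP, stood at 7.37, 7.61 and 7.53 in siDUSP4 A, B and C, against 8.34, 8.40 and 8.31 in siCONTROL A, B and C, a change of -0.85 (SE 0.13, adjusted p = 4.0e-05). HLA-DPB1, its beta chain, was at -0.55 and missed the threshold (adjusted p = 0.073) on the probe used, while 1 of its other 2 probes passed at -0.61 (adjusted p = 0.035 over all probes). HLA-DQA1 stood at 5.26, 6.0 and 5.51 in the siDUSP4 arrays, against 6.59, 6.70 and 5.88 in the siCONTROL arrays, so that the groups overlapped, and was not called (-0.80, adjusted p = 0.11). CIITA, the transactivator of class II genes, lay below the median probe level in both groups, at 4.95 ± 0.18 in siDUSP4 and 5.03 ± 0.13 in siCONTROL arrays (SD, n = 3 each), a change of -0.08 (adjusted p = 0.83). HLA-DMA, which loads peptide onto class II molecules, was at -0.11. HLA genes share sequence, so probes may pick up related members. Of 16 MHC class I and peptide loading genes none was called: HLA-B was at -0.07 and the peptide transporter gene TAP2 at 0.24. PTPRC, the leukocyte marker CD45, fell by 0.62 to 5.13 ± 0.12 in siDUSP4 arrays, against 5.75 ± 0.11 in siCONTROL arrays (SD, n = 3 each), near the median probe level. Of the 16 markers of other cell types, the 4 not below that level in both groups were PTPRC, the monocyte marker CD14 (7.48 ± 0.17 in siDUSP4 and 6.94 ± 0.06 in siCONTROL arrays), the endothelial marker PECAM1 (6.71 ± 0.05 and 7.11 ± 0.06) and the fat cell marker PLIN1 (5.38 ± 0.15 and 5.33 ± 0.22). CD14 (0.54, adjusted p = 0.21), PECAM1 (-0.40, 0.15) and PLIN1 (0.05, 0.93) were not called. The T cell genes CD3D and CD3E and the B cell gene MS4A1 lay below that level in all SUM159PT arrays, and the part of other cells in the class II change was not tested.

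Of 39 matrix and mesenchymal genes 11 were lower and 1 was higher, with a median of -0.27, where 1.78% of all genes were lower and 1.05% higher and the median was -0.04. None of the members called lower was a transcription factor. The 3 chains of collagen VI fell together: COL6A3 stood at 10.87, 10.75 and 10.85 in siDUSP4 A, B and C, against 11.55, 11.38 and 11.38 in siCONTROL A, B and C, a change of -0.62 (SE 0.12, adjusted p = 0.0010), with COL6A1 at -0.62 and COL6A2 at -0.51. TNC, the matrix glycoprotein tenascin-C, stood at 8.31, 8.32 and 8.04 in the siDUSP4 arrays, against 9.13, 8.78 and 8.84 in the siCONTROL arrays and changed by -0.69 (adjusted p = 6.1e-04). The small leucine-rich proteoglycans BGN and DCN, which bind collagen, changed by -0.79 and -0.59 (adjusted p = 8.8e-04 and 0.0011). Further calls were POSTN, periostin (-0.69), FAP, a fibroblast surface protease (-0.66), CDH11, cadherin 11 (-0.50), FBN1, fibrillin (-0.45), and LOXL2, a lysyl oxidase that cross-links collagen (-0.40). COL5A2, a collagen V chain, rose by 0.37 (adjusted p = 0.037). Members that were not called included THBS1 at 0.04, TGFBI at -0.07, FN1 at 0.02 and VIM at 0.09. SNAI1 (-0.47), SNAI2 (-0.31), ZEB1 (-0.21) and TWIST1 (0.01), transcription factors of the mesenchymal state, were not called. With 1 array left out the number lower was 7 without siCONTROL A, siDUSP4 A or siDUSP4 C, 8 without siCONTROL C, and 9 without siCONTROL B or siDUSP4 B. LOXL2 and COL5A2 were lost in all 6 runs (adjusted p up to 0.27 and 0.18), FBN1 in 5, FAP in 3, POSTN and COL6A2 in 2 each and COL6A1 in 1, with adjusted p up to 0.12 among these.

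Of 27 matrix protease and inhibitor genes 4 fell and none rose: MMP1 and MMP13, given above, MMP14, the membrane-bound activator of MMP2, at -0.52 (adjusted p = 0.0090), and TIMP2, its partner inhibitor, which stood at 10.40, 10.58 and 10.58 in the siDUSP4 arrays, against 11.04, 11.04 and 11.01 in the siCONTROL arrays and changed by -0.51 (adjusted p = 7.8e-04). MMP2 was at -0.04 and TIMP1, another inhibitor, at -0.10. In the plasminogen system 2 of 14 fell, SERPINE2 and PLAT, the tissue activator (-0.45, adjusted p = 0.019). The call of PLAT was lost in 5 of 6 runs (adjusted p up to 0.12; kept without siDUSP4 C), and that of MMP14 without siCONTROL B, siCONTROL C or siDUSP4 A (up to 0.091). Of 15 integrin genes, 4 fell and 1 rose. ITGB8, the beta chain that activates latent TGF-beta, stood at 6.30, 6.52 and 6.70 in siDUSP4 A, B and C, against 7.57, 7.58 and 7.80 in siCONTROL A, B and C, a change of -1.15 (SE 0.17, adjusted p = 6.3e-05). ITGB2, the leukocyte integrin beta chain, stood at 6.13, 6.42 and 6.59 in the siDUSP4 arrays, against 7.27, 7.36 and 7.33 in the siCONTROL arrays and changed by -0.94 (adjusted p = 7.6e-04). ITGA6, a laminin receptor chain, changed by -0.46, and ITGA2, a collagen receptor chain, rose by 0.41 (adjusted p = 0.015), and each call was lost in 4 of 6 runs with 1 array left out (adjusted p up to 0.070 and 0.076). The fibronectin and vitronectin receptor chains ITGA5 (0.09) and ITGB3 (-0.11) were not called. Among 27 receptor tyrosine kinase genes KDR rose, PDGFRB fell and ROR1, a WNT5A receptor, fell by 0.49 (adjusted p = 0.018, lost in 4 of 6 runs, up to 0.14). PDGFRA (-0.18), AXL (-0.14), EGFR (-0.02) and MET (0.12) were not called.

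**Figure D3:**
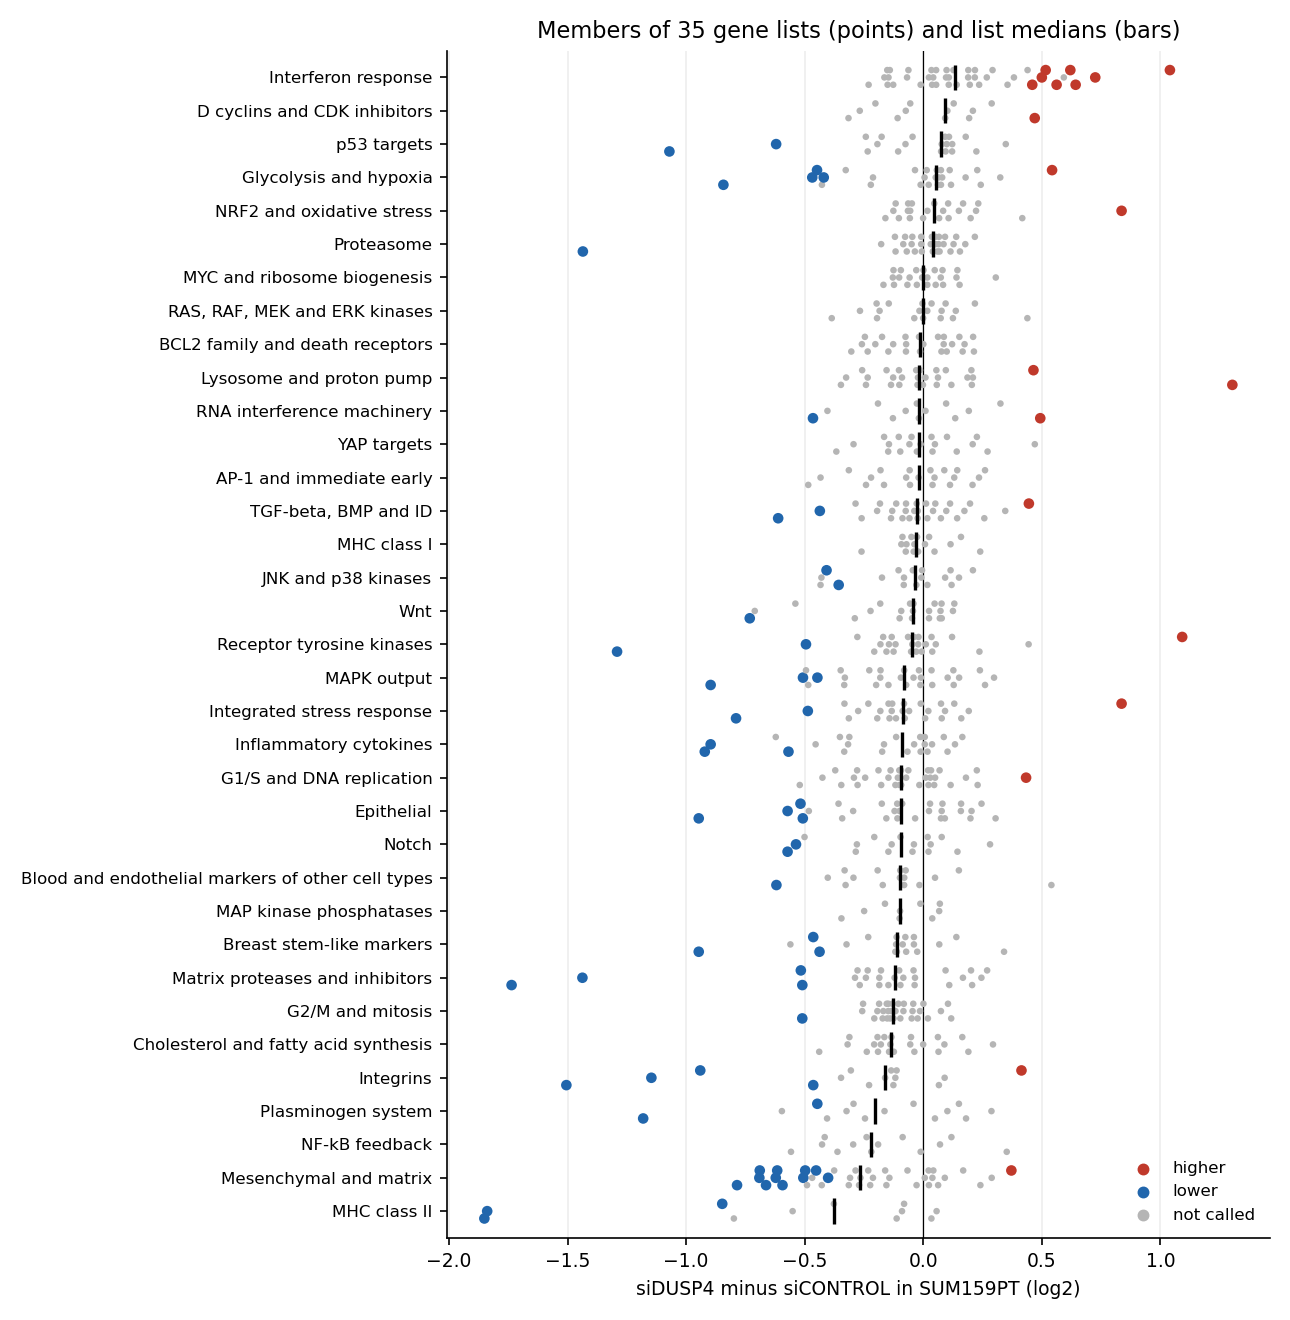
Points are member genes of 35 gene lists, placed by siDUSP4 minus siCONTROL change in SUM159PT (log2, horizontal), coloured red or blue where called higher or lower, and bars are list medians. Lists run down the page by median, with interferon response at the top (0.13) and MHC class II at the bottom (-0.38).

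Of 28 epithelial genes 4 fell and none rose. CD24, a surface protein that is low on stem-like breast cancer cells, stood at 6.49, 6.76 and 6.69 in siDUSP4 A, B and C, against 7.45, 7.69 and 7.63 in siCONTROL A, B and C, a change of -0.95 (SE 0.16, adjusted p = 2.5e-04). LAMB3, a chain of basement membrane laminin, changed by -0.57, the basal keratin gene KRT14 by -0.52 and ELF3, an epithelial ETS factor like EHF, by -0.51. Between 1 (without siDUSP4 A) and 4 (without siDUSP4 B) of the 4 stayed called when 1 array was left out, CD24 each time, with adjusted p of the others up to 0.10. The luminal keratin genes KRT8 and KRT18 were at -0.10 and -0.11. Of 19 stem-like marker genes 3 fell: CD24, ITGA6 and ALDH1A3, an aldehyde dehydrogenase (-0.44, adjusted p = 0.012), whose second probe was at 0.08 and not called. CD24 is low on stem-like cells and is also counted in the epithelial list, so this count has no single direction. The ALDH1A3 call was lost in 4 of 6 runs (adjusted p up to 0.10). CD44, the hyaluronan receptor that is set against CD24 in these definitions, was at 12.02 in siDUSP4 and 12.04 in siCONTROL arrays, a change of -0.03.

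Cell cycle genes were called at a share near that of all genes (2.83%). Of 35 genes of G1/S transition and DNA replication 1 rose, CDC25A, the phosphatase that activates CDK2, at 6.80, 6.83 and 6.74 in the siDUSP4 arrays, against 6.48, 6.36 and 6.24 in the siCONTROL arrays, a change of 0.43 (adjusted p = 0.033) that was lost in 5 of 6 runs with 1 array left out (adjusted p up to 0.17; kept without siCONTROL A). CCNE2 (-0.52), TYMS (-0.43) and CCNE1 (0.23) were not called. CDK6, the partner kinase of D cyclins, stood at 9.33, 9.15 and 9.08 in the siDUSP4 arrays, against 8.71, 8.64 and 8.81 in the siCONTROL arrays and rose by 0.47 (adjusted p = 0.0068), while CDK4 was at -0.05, CCND3 at 0.21 and CDKN1B at 0.29. CDK6 was not called without siCONTROL B or siDUSP4 A (adjusted p up to 0.081). Among 31 mitotic genes PRC1, a microtubule bundler of the spindle midzone, fell. Its levels of 9.30, 9.31 and 9.38 in the siDUSP4 arrays, against 9.84, 9.83 and 9.84 in the siCONTROL arrays gave a change of -0.51 (SE 0.09, adjusted p = 2.5e-04). TOP2A (-0.05) and NUSAP1 (-0.19) were not called. Of 20 p53 target genes 2 fell, both also known as stress genes: GDF15, a secreted cytokine, at 7.73, 8.01 and 8.09 in siDUSP4 A, B and C, against 9.04, 9.07 and 8.94 in siCONTROL A, B and C (-1.07, adjusted p = 0.0012), and GADD45A (-0.62, adjusted p = 0.0022). CDKN1A was at 0.09 and MDM2 at 0.18. None of 25 BCL2 family and death receptor genes was called, with MCL1 at 0.15, BCL2L1 at 0.09 and BID at -0.30.

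A smaller set changed in the same direction in all 3 lines, 12 genes higher and 72 lower. All 3 lines carry the same siDUSP4 label against siCONTROL. Effects of that siRNA other than on DUSP4 therefore cannot be told apart from loss of DUSP4, here and in the rest of the comparison. Of the 189 genes higher in SUM159PT, 55 were also higher in MDA231 (29.1%; 3.90% of the 1412 higher there) and 29 in BT549 (15.3%; 3.25% of 892). Of the 320 lower genes, 130 were also lower in MDA231 (40.6%; 7.41% of 1754) and 129 in BT549 (40.3%; 7.79% of 1656). In MDA231 7.86% of all genes were higher and 9.77% lower, and in BT549 4.97% and 9.22%. PSMB5, the chymotrypsin-like subunit of the proteasome, stood at 8.10, 8.41 and 8.42 in siDUSP4 A, B and C, against 9.65, 9.80 and 9.79 in siCONTROL A, B and C, a change of -1.44 (SE 0.14, adjusted p = 1.3e-08), with -1.14 in MDA231 and -1.78 in BT549. It was the 1 called gene of 33 proteasome genes in SUM159PT, where the other members lay between -0.18 and 0.22. PAAF1, a factor that binds proteasomal ATPases, stood at 7.46, 7.52 and 7.57 in the siDUSP4 arrays, against 8.36, 8.51 and 8.63 in the siCONTROL arrays and changed by -0.98 (-1.20 in MDA231 and -0.81 in BT549). FNBP1L, an actin and membrane curvature adaptor, stood at 5.03, 5.21 and 5.07 in the siDUSP4 arrays, against 6.33, 6.38 and 6.22 in the siCONTROL arrays and changed by -1.21 (-1.36 and -1.55 in MDA231 and BT549). For none of these 3 was a difference between SUM159PT and either line called (adjusted p between 0.27 and 0.71).

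Other falls in all lines, given as SUM159PT, MDA231 and BT549, were of HTRA1, a secreted serine protease (-0.81, -1.25 and -0.88), POLR2C, a subunit of RNA polymerase II (-0.79, -0.46 and -0.49), and LAMTOR3, a scaffold that binds MEK1 and ERK on late endosomes (-0.78, -0.99 and -0.82). STEAP3, an iron reductase, changed by -0.74, -1.09 and -1.95, and ADAMTS12, a matrix protease, by -0.78, -0.35 and -0.80. Among rises in all lines, DHRS1, a short-chain dehydrogenase, stood at 7.72, 7.78 and 7.67 in the siDUSP4 arrays, against 6.78, 6.78 and 7.01 in the siCONTROL arrays in SUM159PT and changed by 0.87, 0.60 and 0.72. HSD17B8, a mitochondrial dehydrogenase of fatty acid synthesis, changed by 0.71, 0.45 and 0.41, and ENTPD7, a nucleotide hydrolase, by 0.70, 1.12 and 0.50. DICER1, which cuts small RNA precursors, rose by 0.49, 0.31 and 0.63. In SUM159PT it was 1 of 2 called among 13 RNA interference genes, the other being TNRC6A, which silences messages bound by Argonaute (-0.47), while AGO2 was at -0.07.

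The change in SUM159PT differed from that in MDA231 for 1201 genes (6.69%) and from that in BT549 for 1012 (5.64%), by the interaction of line and siRNA in limma. Among the 509 called genes, 37 higher and 55 lower ones differed from both lines, and 76 higher and 163 lower ones from neither. S100A8 was one that differed from both, with 0.05 in MDA231 and 0.09 in BT549 (differences 1.82 and 1.77, adjusted p = 6.8e-06 and 1.2e-05). CASP14 was at 0.24 and 0.17 in those lines, IBSP at 0.21 and 0.29, MMP13 at 0.28 and 0.06, and PDGFRB at 0.08 and -0.05. Each of these differences was called, with adjusted p of 6.2e-05 or less against MDA231 and 1.8e-04 or less against BT549. The levels of these genes in MDA231 and BT549 are not given here. A gene near the floor of the array in a line could not fall there. DHRS9 rose in MDA231 too (1.47) and was not called in BT549 (0.13, difference 1.40, adjusted p = 1.3e-05). ATP6V0D2 rose more in MDA231 (3.57, difference -2.27, adjusted p = 2.4e-06).

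Against MDA231, 11 of the higher and 22 of the lower genes were called in the opposite direction there. SPOCK1 had the smallest p of these, at -1.67 in SUM159PT and 0.44 in MDA231 (difference -2.11, SE 0.17, adjusted p = 2.3e-10). TDO2, which degrades tryptophan, stood at 8.54, 8.28 and 8.43 in siDUSP4 A, B and C, against 9.35, 9.17 and 9.23 in siCONTROL A, B and C in SUM159PT and changed by -0.84, against 2.14 in MDA231. GPRC5B, an orphan receptor, changed by -1.05 against 1.80, STAT4 by -1.30 against 0.69, GADD45A by -0.62 against 0.96, GDF15 by -1.07 against 0.88, and CRISPLD2, a secreted cysteine-rich protein, by -0.62 against 1.12 (its SUM159PT call was lost in 3 of 6 runs with 1 array left out, adjusted p up to 0.079). The adjusted p of these 6 differences lay between 1.7e-09 and 3.2e-05. MMP1 fell in SUM159PT and BT549 (-1.98) but was at 0.33 in MDA231 (difference -2.06, adjusted p = 1.5e-07). Of the 11 MHC class II genes 3 fell in SUM159PT, against 9 in MDA231, and the difference was called for 4, HLA-DPB1 (2.13) and HLA-DPA1 (1.1) among them. For HLA-DRA and CD74 the difference was not called (adjusted p = 0.074 and 0.64).

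Against BT549, 21 of the higher and 5 of the lower genes were called in the opposite direction there. The interferon genes were prominent: 17 of the 42 had a called difference, all with the higher change in SUM159PT, and 8 were higher and none lower in SUM159PT, against 1 higher and 17 lower in BT549 (median -0.29). OASL was at 0.62 in SUM159PT and -1.0 in BT549 (difference 1.62, SE 0.19, adjusted p = 7.1e-07), RSAD2 at 1.04 against -0.48, OAS2 at 0.64 against -0.68, and IFI35 at 0.52 against -0.49. In MDA231 11 of the 42 were higher and 3 lower (median 0.18). CTTN, the actin regulator cortactin, stood at 9.78, 9.78 and 9.80 in siDUSP4 A, B and C, against 8.99, 9.17 and 9.16 in siCONTROL A, B and C in SUM159PT, a rise of 0.68 (adjusted p = 2.2e-05), against -0.43 in BT549. MAP4K4, a kinase upstream of JNK, stood at 9.72, 9.56 and 9.49 in the siDUSP4 arrays, against 9.06, 8.94 and 9.07 in the siCONTROL arrays and rose by 0.57, against -0.52 in BT549. LMCD1, a LIM domain protein, fell by 0.86 in SUM159PT and was at 1.21 in BT549 (difference -2.07, adjusted p = 7.1e-07). G1/S genes also differed: 1 of 35 rose in SUM159PT (median -0.09), against 27 in BT549 (median 0.62), with a called difference for 23. Of 39 matrix genes 11 fell in SUM159PT (median -0.27), against 23 in BT549 (median -0.48), and the difference was called for 14, 13 of them with the higher change in SUM159PT.

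**Figure D4:**
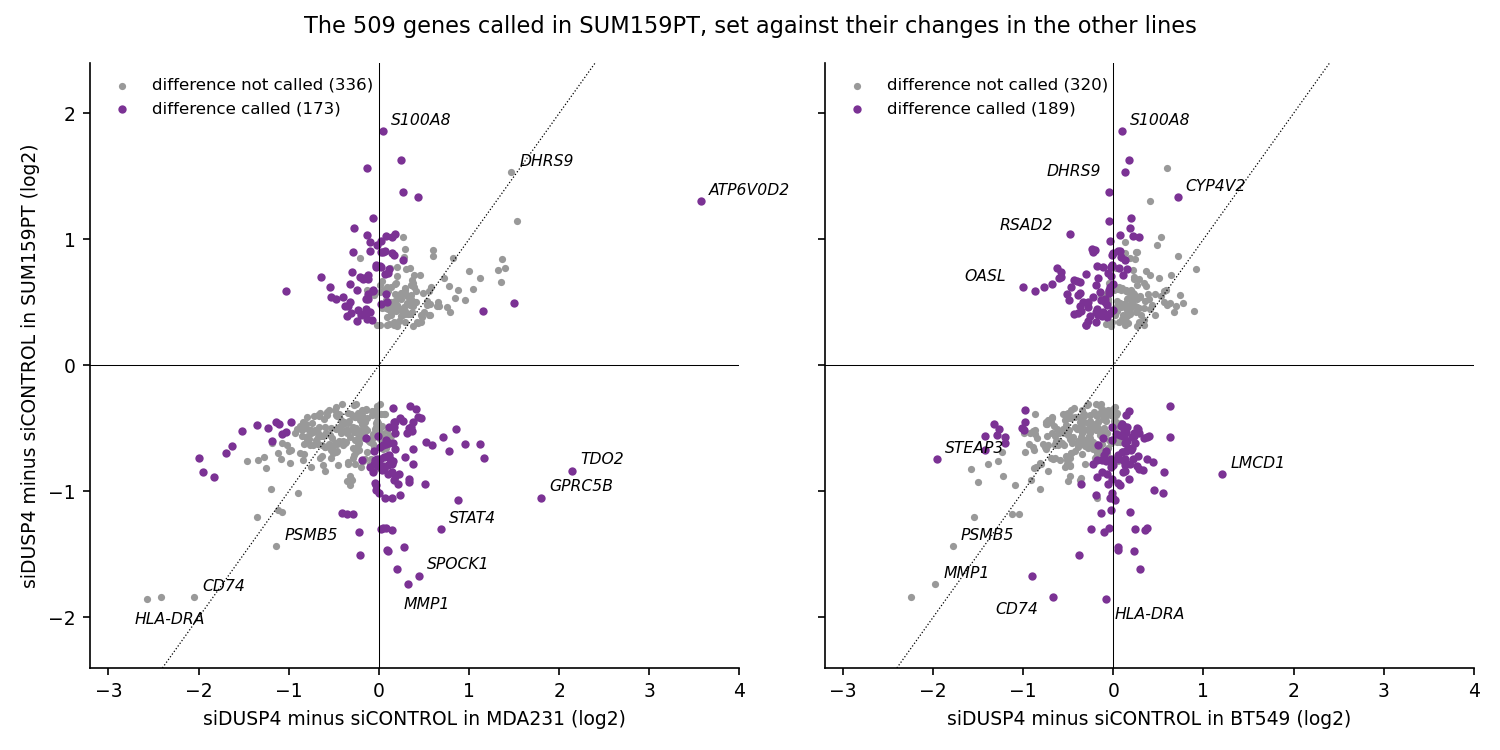
The 509 genes called in SUM159PT, placed by their siDUSP4 minus siCONTROL change (log2) in MDA231 (left panel, horizontal) or BT549 (right panel, horizontal) and in SUM159PT (vertical). Purple points have a called difference between the lines, the dotted line marks equal change, and S100A8 lies near 0 on both horizontal axes (0.05 and 0.09).

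**Figure D5:**
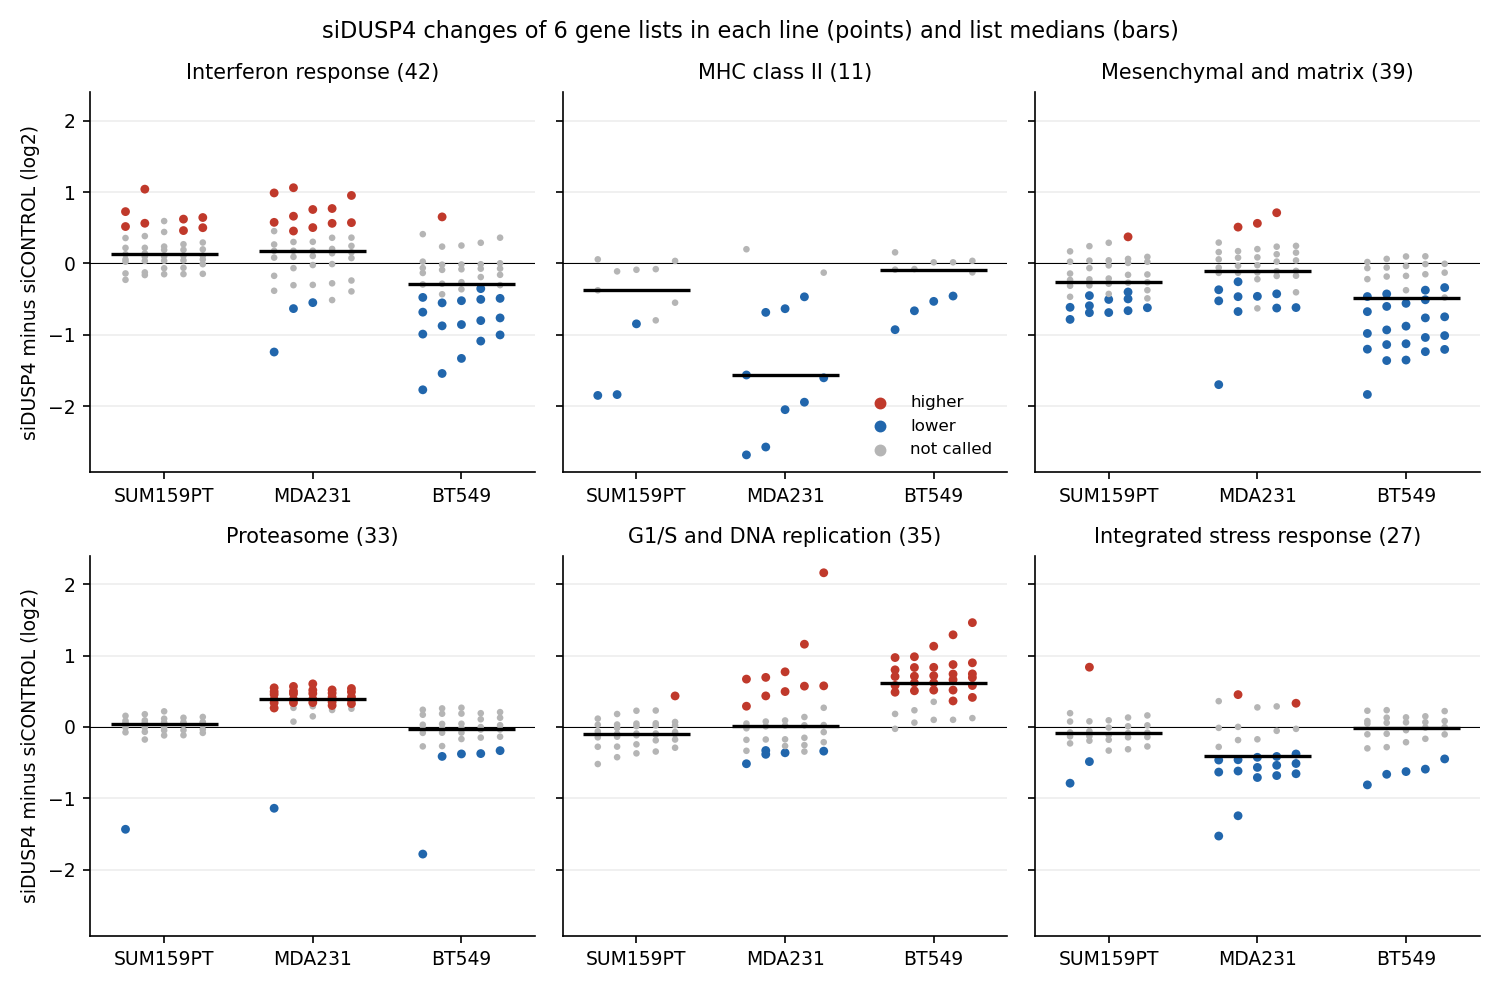
Changes after siDUSP4 (log2, vertical) of the members of 6 gene lists in SUM159PT, MDA231 and BT549, with called genes in red (higher) or blue (lower) and bars at list medians. Interferon medians are 0.13, 0.18 and -0.29 and G1/S medians -0.09, 0.02 and 0.62 in that order of lines, and PSMB5 is the lowest point of the proteasome panel in each line.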

How the data were processed

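The 36 arrays are Affymetrix gene arrays with 33297 probes. Per the submitters' processing notes the authors normalized them with RMA in Affymetrix Expression Console 1.1, and deposited 1 table of log2 levels, which was used as deposited. Its options, and the build behind the probe annotation, were not stated in the labels. The number of arrays limits the precision. Of the probes, 19181 have 1 gene symbol in the platform annotation, 2055 have several and 12061 are unnamed here. Each of the 17958 genes was read from its probe of highest mean over all arrays. limma 3.58.1 (R 4.3.3) fitted 12 group means to the 36 arrays (24 residual degrees of freedom), and p-values were adjusted over all genes by Benjamini and Hochberg. Differences between lines are interaction contrasts of the same fit. With 3 arrays against 3, an exact permutation test of 1 gene cannot go below 0.1. The code was tested on simulated data.

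Groups follow the array titles. The comparison, its 35 gene lists and the genes named were chosen with earlier results of these data known. Genes could be named as the 20 largest rises and falls, up to 15 in each direction called in all 3 lines, the 10 of smallest p for a difference from each other line, and, in each list, called members plus the uncalled member of smallest p or the 2 of highest level. Other list members given as not called, and the identity markers, were picked after their values were seen. Alternatives were other sets of arrays, array medians aligned, repeated quantile normalization, dim genes left out, a trended or robust limma fit, other probe rules, a block by replicate letter, and each array left out. Promoter windows came from RefSeq (GRCh38.p14), available for 13864 of the genes tested.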

Additional observations from a re-analysis of the deposited data

Results flagged for a closer look

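The siDUSP4 change in SUM159PT differed from that in another line, by a limma test of the interaction, for 1201 genes against MDA231 and 1012 against BT549. The genes given here are those that the naming rule allows and that were called in opposite directions in SUM159PT and the other line, with the difference itself called. Values are SUM159PT changes minus changes in the other line, on the log2 scale. Against MDA231 the change was more negative in SUM159PT for TDO2 (-2.98), GPRC5B (-2.84), SPOCK1 (-2.11), STAT4 (-1.99), GDF15 (-1.95), CRISPLD2 (-1.74) and GADD45A (-1.58). The integrin gene ITGB2 (-1.45), the epithelial genes ELF3 (-1.36) and KRT14 (-0.88), the cytokine IL1A (-1.28) and the plasminogen activator PLAT (-0.82) also had the lower change in SUM159PT, and the kinase PDK3 had the higher (0.94). Against BT549 the change was higher in SUM159PT for the antiviral genes OASL (1.62), RSAD2 (1.52), OAS2 (1.33) and IFI35 (1.01), for the lipoprotein receptor family member LRP1B (1.39), and for CTTN (1.11), MAP4K4 (1.08) and ITGA2 (0.81). It was lower for LMCD1 (-2.07) and the vasoactive peptide gene ADM (-1.40). With 1 array left out, the SUM159PT call was lost in all 6 runs for IL1A, in 5 for ELF3, PLAT, IFI35 and OAS2, in 4 for ITGA2, in 3 for KRT14 and CRISPLD2, in 2 for ADM and in 1 for LRP1B, with adjusted p up to 0.19 (IFI35) among them.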

How the results depend on the processing

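DUSP4 stayed between -1.88 and -1.77 and called under all 15 alternatives. The count of called genes in SUM159PT, 509, was 1333 with the 12 SUM159PT arrays alone, 1558 with the 6 arrays alone and 1085 after repeated quantile normalization, and 290 to 339 without 1 array. The shares of the called genes that were lower stayed between 58.7% and 65.2%, and no gene called with all arrays was called in the opposite direction. Repeated quantile normalization also gave 2171 differences from MDA231 (1162 higher and 1009 lower) and 1928 from BT549 (904 higher and 1024 lower), beside 1201 (636 and 565) and 1012 (586 and 426). With array medians aligned the differences from MDA231 were 882 higher and 467 lower. The cause was not tested. Same-lettered arrays did not deviate together (r = -0.01, -0.02 and 0.05), beside -0.06 to 0.07 for arrays of unlike letters. With so few arrays these values cannot show whether the letters pair them, and the labels do not say. With the replicate block 513 genes were called, 467 of them shared with the same direction, and 1142 and 934 genes differed from MDA231 and BT549. Over all named genes and alternatives, 189 results lost their call, 35 gained one, 2819 kept their side, and none reversed. Gains included those of HLA-DPB1 in 6 of the 15 alternatives, TRAF1 and BID in 3 each, and IER3 in 2. Of 128 named genes called, 83 were called in every run that left out 1 array and 45 were not. EYS lost its call with the mean of its probes (adjusted p = 0.40). Signal over background limits low genes: 30 of the 189 higher genes lay below the median probe level in siCONTROL arrays, and 45 of the 320 lower genes in siDUSP4 arrays. Below that level in both groups lay 13 of the higher and 20 of the lower genes.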

Other observations

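Over all genes 1.05% rose and 1.78% fell. In the Notch pathway 2 of 17 measured genes fell and none rose, in every run that left out 1 array: RBPJ, the transcription factor through which Notch receptors act, averaged 9.71 ± 0.07 in siDUSP4 and 10.24 ± 0.02 in siCONTROL arrays (SD, n = 3 each; change -0.54, adjusted p = 3.9e-04), and the receptor NOTCH3 averaged 7.37 ± 0.11 and 7.94 ± 0.04 (-0.57, adjusted p = 0.0012). RBPJ was at -0.75 in MDA231 and -0.35 in BT549. A second RBPJ probe was at -0.37 in SUM159PT and not called (limma adjusted p = 0.40 over all probes). In the TGF-beta and BMP list 1 of 30 rose and 2 fell. TGFBR2, the ligand-binding receptor, rose by 0.45 (adjusted p = 0.0059), while TGFBR1, its signalling partner, fell by 0.44 and LTBP1, which anchors latent TGF-beta in the matrix, by 0.61. TGFBR1 was not called in 5 of the 6 runs (adjusted p up to 0.088; kept without siCONTROL A). WNT7B was the 1 gene called of 21 in the Wnt list, at -0.73, and kept its call only without siDUSP4 C (adjusted p otherwise up to 0.32). None of 20 YAP targets was called (median -0.02), nor any of 23 MYC and ribosome biogenesis genes (median 0.00).

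Calls in metabolic and stress lists differed in direction. SLC7A11, the cystine and glutamate exchanger that feeds glutathione synthesis, stood at 9.01, 8.82 and 8.72 in siDUSP4 A, B and C, against 8.02, 7.95 and 8.06 in siCONTROL A, B and C, a rise of 0.84 (SE 0.11, adjusted p = 1.1e-05). It was the 1 called of 23 genes of oxidative stress defence and the 1 that rose of 27 in the integrated stress response. In the same list PHGDH, the first enzyme of serine synthesis, stood at 9.60, 9.68 and 9.85 in the siDUSP4 arrays, against 10.44, 10.55 and 10.51 in the siCONTROL arrays and fell by 0.79 (adjusted p = 1.0e-05), and STC2, stanniocalcin 2, was at -0.49 and not called with any array left out (adjusted p up to 0.18). Of 27 glycolysis and hypoxia genes 1 rose and 4 fell (median 0.05). PDK3, a kinase that shuts off pyruvate dehydrogenase, rose by 0.54, and P4HA2, a collagen prolyl hydroxylase, fell by 0.47 (adjusted p = 0.0028 and 1.0e-03). The secreted factors ADM (-0.84) and VEGFA (-0.42) and the MAX partner MXI1 (-0.45) also fell. VEGFA was lost in all 6 runs with 1 array left out (adjusted p up to 0.11) and with array medians aligned, MXI1 in 5 (up to 0.12) and ADM in 2 (up to 0.074), with the number lower between 1 (without siCONTROL A or siDUSP4 A) and 3 (without siCONTROL B) when 1 array was left out. None of 23 cholesterol and fatty acid synthesis genes was called (median -0.13), against 13 lower in MDA231 (median -0.50). Of 28 lysosome genes 2 rose, ATP6V0D2 and MCOLN1, a calcium channel of lysosomes (0.46), which was lost in 3 of 6 runs (without siCONTROL A, siCONTROL B or siDUSP4 C, adjusted p up to 0.10).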
